A study of Rattus norvegicus with 24 samples.

Results

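The 9 genes described here mark the projection neurons of the striatum and were followed across 24 rat forebrain arrays: Drd2, Penk, Adora2a, Tac1, Pdyn, Ppp1r1b, Rgs9, Pde10a and Bcl11b. All probe sets whose single gene symbol in the platform annotation is one of these 9 genes were taken, which gave 15 of 31099 probe sets. None of the 12 that were bright enough to test differed from vehicle at any dose by the test used. Of all probe sets tested, between 0% (200 mg/kg) and 8.48% (20 mg/kg) did so, and the intervals of the members were wide. Levels of the 9 genes differed several-fold between rats of the same dose group, and the genes were high or low on the same arrays.

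The rats were male Fisher 344 animals of 11 to 12 weeks that received 1 dose of D-serine, a co-agonist of the NMDA type of glutamate receptor. Groups of 4 rats were given 0 (vehicle), 5, 20, 50, 200 or 500 mg/kg and killed after 96 h. Total RNA came from a forebrain section of about 30 mg per rat, and each rat has 1 array. How the section was cut, and which part of the forebrain it held, is not stated in the labels. Replicate numbers only name the arrays of a group. Levels are given as log2(intensity + 16) after quantile normalization, so a difference of 1 is a 2-fold change and differences of dim probe sets are understated.

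Striatal projection neurons are inhibitory cells that receive glutamate input from the cortex and thalamus and dopamine from the midbrain. Those of the indirect pathway carry the dopamine receptor Drd2, the adenosine receptor Adora2a and the enkephalin precursor Penk. Those of the direct pathway carry the dopamine receptor Drd1 and make the peptide precursors Tac1 (substance P) and Pdyn (dynorphin). Both kinds hold Ppp1r1b (DARPP-32, an inhibitor of protein phosphatase 1 that dopamine signals control), Rgs9 (which shortens G protein signals), Pde10a (a phosphodiesterase that degrades cAMP and cGMP) and Bcl11b (CTIP2, a transcription factor needed for their development). Bcl11b is also present in deep cortical and hippocampal neurons, and the peptide genes have other sources in the forebrain.

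RefSeq promoters on the GRCr8 build were at hand for 5 of the 9 genes: Drd2, Tac1, Pdyn, Rgs9 and Pde10a. The 250 bases before the gene start are shown for an indirect pathway gene and both direct pathway genes, as examples of the upstream sequence of genes that varied together on the arrays. Capitals mark the GC box (GGGCGG), the TATA box (TATAAA) and the short form of the cAMP response element (TGACG), searched on both strands; it is part of the full element TGACGTCA. The Drd2 window is chr8:58605153-58605402 on the plus strand, the Tac1 window chr4:36645333-36645582 on the plus strand, and the Pdyn window chr3:137366504-137366753 on the minus strand.
Drd2: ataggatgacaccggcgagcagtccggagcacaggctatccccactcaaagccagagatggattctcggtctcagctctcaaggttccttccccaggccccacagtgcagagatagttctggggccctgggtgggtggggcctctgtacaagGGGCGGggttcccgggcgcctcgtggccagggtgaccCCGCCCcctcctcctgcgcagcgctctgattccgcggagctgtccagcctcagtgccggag
Tac1: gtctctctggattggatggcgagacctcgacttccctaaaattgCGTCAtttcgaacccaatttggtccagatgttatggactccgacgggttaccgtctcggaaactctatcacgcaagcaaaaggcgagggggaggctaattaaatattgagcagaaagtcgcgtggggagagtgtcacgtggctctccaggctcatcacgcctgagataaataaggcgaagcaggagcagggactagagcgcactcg
Pdyn: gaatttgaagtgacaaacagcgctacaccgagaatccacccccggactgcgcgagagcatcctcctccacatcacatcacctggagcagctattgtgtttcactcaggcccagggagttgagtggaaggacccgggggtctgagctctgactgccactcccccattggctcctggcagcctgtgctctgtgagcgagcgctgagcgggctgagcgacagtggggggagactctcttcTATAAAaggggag
The Drd2 window held 2 GC boxes, the Tac1 window 1 short response element and the Pdyn window 1 TATA box. The windows not shown held 1 GC box (Rgs9) and 2 short response elements (Pde10a), so 2 of the 5 members held each of these motifs. An E box (CACGTG) was also found once, in Tac1, and the AP-1 site (TGAGTCA) in none of the 5. Over all 27457 RefSeq promoters of the same length, 32.4% held a GC box, 19.0% the short response element and 13.1% the TATA box. The E box was in 5.79% of them and the AP-1 site in 3.98%. The full response element was in none of the 5 member promoters and in 1.7% of all. GC content was 66.0% for Drd2, 52.4% for Tac1 and 59.2% for Pdyn, against a median of 52.0% for all promoters. These matches describe the letters of the windows and say nothing about whether a factor binds there.

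The median deposited intensity of an array ran from 56 to 103.8. One array, 500 mg/kg replicate 4, stood apart: the mean of 9 cerebellar genes, centred on the other arrays, was 3.48 there and at most 0.34 on the other 23. Markers of cortical neurons (Camk2a at a mean level of 11.55) and of striatal neurons (Penk at 9.34) were both present.

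Among the indirect pathway genes, Drd2 (probe set 1368708_a_at) was at 6.86, 7.24, 7.05 and 8.62 in vehicle replicates 1 to 4. It was at 7.22, 6.14, 7.87 and 8.16 at 5 mg/kg and at 6.35, 6.43, 7.47 and 8.37 at 20 mg/kg. At both doses they overlapped those of vehicle. Drd2 was at 8.21, 5.69, 5.33 and 5.98 at 50 mg/kg, at 8.15, 7.13, 6.10 and 7.41 at 200 mg/kg and at 7.07, 8.12, 8.01 and 5.80 at 500 mg/kg. Of the 50 mg/kg group, 3 rats lay below every vehicle rat, while the remaining one was close to the highest. Between the highest of 23 arrays, vehicle replicate 4, and the lowest, 50 mg/kg replicate 3, Drd2 differed 9.81-fold.

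Penk (1367949_at) was at 9.14, 9.37, 9.29 and 10.88 in vehicle, at 9.74, 7.75, 10.26 and 10.39 at 5 mg/kg and at 8.43, 8.69, 9.46 and 10.40 at 20 mg/kg. It was at 10.62, 8.07, 7.64 and 7.92 at 50 mg/kg, at 10.15, 9.40, 8.83 and 9.66 at 200 mg/kg and at 9.16, 10.26, 10.24 and 8.38 at 500 mg/kg. The high and low rats were largely those of Drd2, and no dose group was separate from vehicle. Adora2a (1368300_at) ran from 5.03 in 20 mg/kg replicate 1 to 8.44 in vehicle replicate 4, a 10.6-fold range.

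Of the direct pathway genes, Tac1 (1369309_a_at) was at 6.43, 6.93, 6.86 and 8.54 in vehicle, at 6.95, 5.97, 8.31 and 9.17 at 5 mg/kg and at 6.47, 5.95, 6.73 and 8.85 at 20 mg/kg. It was at 8.38, 5.28, 6.42 and 5.62 at 50 mg/kg, at 7.78, 6.46, 7.31 and 6.50 at 200 mg/kg and at 6.45, 8.53, 7.85 and 5.50 at 500 mg/kg. Tac1 had the widest range of the 9 genes, 14.8-fold over 23 arrays, and its highest value was that of 5 mg/kg replicate 4. Pdyn (1383294_at) was at 7.27, 7.14, 8.20 and 9.10 in vehicle, at 7.26, 7.87, 8.94 and 9.40 at 5 mg/kg and at 7.72, 7.56, 8.06 and 8.99 at 20 mg/kg. It was at 9.60, 7.71, 7.97 and 7.66 at 50 mg/kg, at 8.08, 7.85, 7.01 and 7.96 at 200 mg/kg and at 8.34, 9.42, 9.001 and 6.13 at 500 mg/kg. The highest Pdyn value was in 50 mg/kg replicate 1, whose 3 companions lay within the vehicle range.

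The genes of both pathways were spread in the same manner. Over 23 arrays Ppp1r1b (1372208_at) ran from 7.93 to 10.58 and Rgs9 (1368500_a_at) from 6.86 to 9.67. Pde10a (1368438_at) was between 8.32 and 11.01. Bcl11b (1384944_at) had the narrowest range, from 8.604 to 10.25 or 3.13-fold. Vehicle replicate 4 was the highest array for each of these 4 genes.

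**Figure D1:**
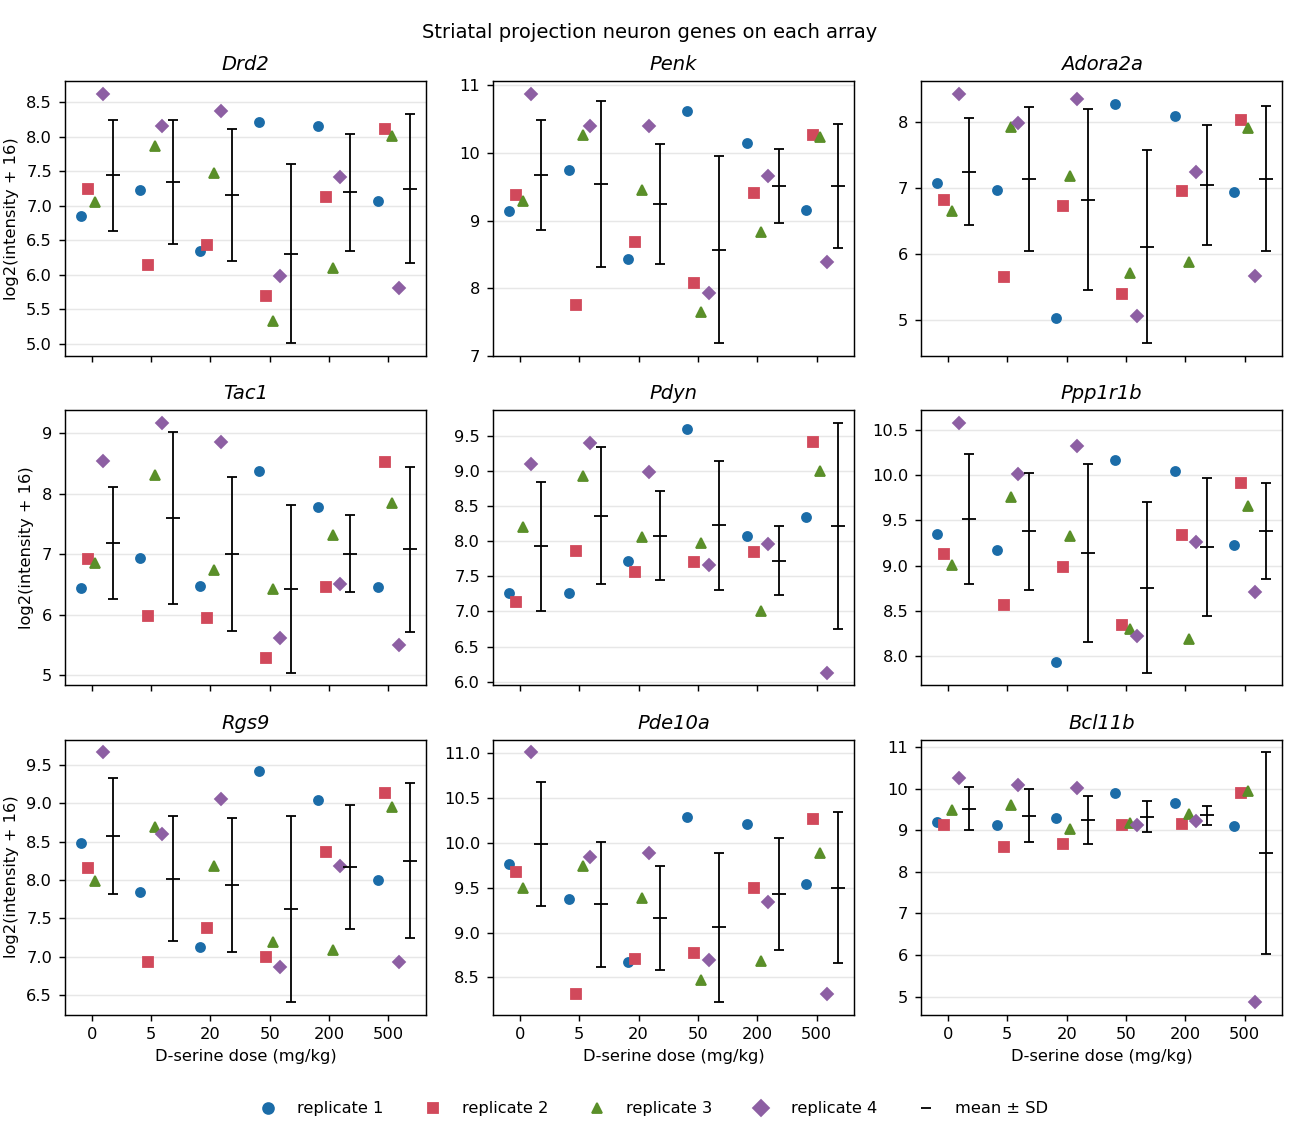
Level of the brightest probe set of each of the 9 genes, as log2(intensity + 16), against D-serine dose in mg/kg. Each symbol is 1 array (4 per dose), the bar at the right of each group is its mean ± SD, and axes do not start at 0. Values of every dose overlap those of vehicle, and the isolated low Bcl11b point at 4.87 is 500 mg/kg replicate 4.

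Whether D-serine changed these genes was tested with limma over all 18625 probe sets that passed the filter, with Benjamini-Hochberg adjustment over all of them and 0.05 as the threshold. Of the 12 member probe sets tested, 0 passed at 5 mg/kg, where 5.52% of all probe sets did. None of the 12 passed at 20 mg/kg (background 8.48%), at 50 mg/kg (0.864%), at 200 mg/kg (0%) or at 500 mg/kg (0.00537%). The F test over all groups (5.93%) and the slope over dose rank (0%) also called 0 of 12. At an unadjusted limma p under 0.05 the count was again 0 of 12 in each of these comparisons. The share of all probe sets below it was 18.9%, 21.8%, 12.9%, 5.3% and 6.9% at the rising doses, 18.6% in the F test and 5.73% for the slope. In 0 of 12 did the 4 arrays of a dose lie wholly above or below the 4 vehicle arrays, against 13.6%, 15.9%, 8.05%, 3.51% and 2.73% of all probe sets at the 5 doses in rising order.

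The 9 genes, each by its brightest probe set, lay furthest from vehicle at 50 mg/kg, where 8 of 9 were lower and the median log2 difference was -0.93. The median over all probe sets tested was -0.002. Drd2 was at 6.30 ± 1.30 (SD, n = 4) at 50 mg/kg and 7.44 ± 0.80 (n = 4) in vehicle, a difference of -1.14 ± 0.63 (SE) with a 95% interval of -2.46 to 0.17. The adjusted p of Drd2 in limma was 0.48. Penk differed by -1.11 ± 0.64 (SE, adjusted limma p 0.50) and Adora2a by -1.14 ± 0.74 (SE, adjusted limma p 0.57). Pde10a had the smallest unadjusted limma p of the members, 0.0556, with a difference of -0.93 and an interval of -1.88 to 0.02. The other tested probe set of Pde10a (1370669_a_at) differed by -0.36 ± 0.29 (SE, unadjusted limma p 0.22, adjusted 0.67). Pdyn was the gene with a positive value, 0.30 ± 0.61 (SE).

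That 50 mg/kg median rests on few rats. Without 50 mg/kg replicate 1 it was -1.41, with all 9 genes lower and 6 of 12 member probe sets at an unadjusted limma p under 0.05 (15.5% of all probe sets), and 0 of 12 past the adjusted threshold (2.18%). The smallest adjusted limma p in that fit was 0.11, for Penk at -1.79 ± 0.58 (SE). Without vehicle replicate 4, the median was -0.59. Both arrays were singled out by the values of these same genes, and leaving out the highest array of a group moves the median by itself. The 9 genes were high or low on the same arrays, so the 6 probe sets are not independent of each other. These fits are therefore no support for a difference at 50 mg/kg.

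At the other doses the medians were -0.14 (5 mg/kg), -0.38 (20 mg/kg), -0.21 (200 mg/kg) and -0.16 (500 mg/kg). Without 500 mg/kg replicate 4, the last one was 0.21, with 8 of 9 genes higher. Tac1 and Pdyn were above vehicle at 5 mg/kg, by 0.41 ± 0.77 and 0.44 ± 0.61 (SE), and the other 7 genes were below. The signs at 5, 200 and 500 mg/kg turned for most genes when vehicle replicate 4 was left out, which gave medians of 0.27, 0.15 and 0.22 (limma fit). Standard errors of the 9 genes were 0.46 to 0.77, against a median of 0.14 over all probe sets. The widest 95% interval reached 1.59 log2 units to either side, so these data do not show that the doses left the genes alike.

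**Figure D2:**
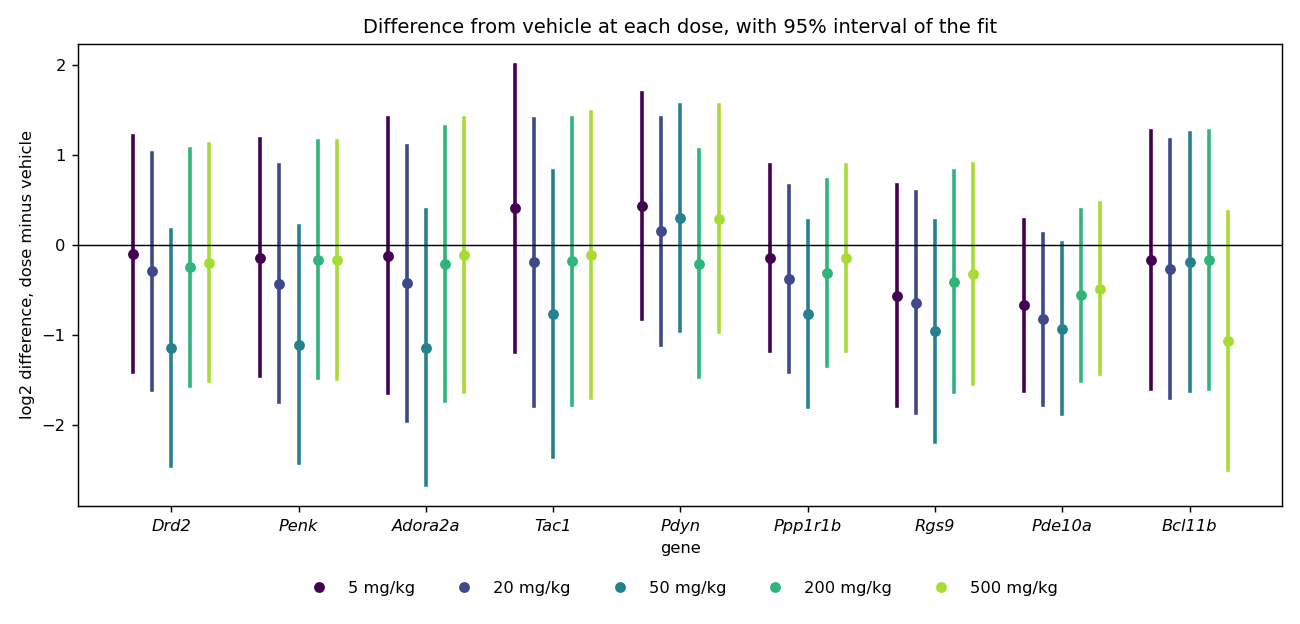
Log2 difference from vehicle of each gene (x axis) at 5 doses (colours), from the limma fit of 24 arrays. Points are differences and lines their 95% intervals; every line crosses 0, and the 50 mg/kg points of Drd2, Penk and Adora2a are near -1.1.

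The 3' to 5' ratio of the Gapdh control probe sets, a measure of RNA integrity, also differed between the groups. Its log2 mean was 0.83 in vehicle, 0.19, 0.18 and 0.34 at 5, 20 and 50 mg/kg, and 0.60 and 0.75 at 200 and 500 mg/kg. The log2 ratio of the Actb control probe sets was 2.56 in vehicle and 1.69, 1.597, 1.87, 2.46 and 2.51 at the rising doses. With the Gapdh ratio in the limma fit the medians of the 9 genes were 0.77, 0.56, -0.32, 0.02 and -0.07, with SEs up to 1.504, and 0 of 12 probe sets passed. When 500 mg/kg replicate 4 was also left out, the medians were 1.96, 1.70, 0.59, 0.48 and 0.69 and all 9 genes were above vehicle at every dose, again with 0 of 12 past the threshold and 1 of 12 at an unadjusted limma p under 0.05 at each of 5, 20 and 500 mg/kg. In that fit 5.13%, 4.88% and 4.91% of all probe sets were below the latter at these doses, and 0 passed the adjusted threshold. With the ratio alone in the fit the median changed sign at 5, 20 and 200 mg/kg. At 50 mg/kg, of the alternatives run, it did so only when that array was left out as well. Of all 18625 probe sets, 0 passed at 5, 20 or 50 mg/kg with the ratio in the fit, and 6.63%, 6.43% and 6.25% had an unadjusted limma p under 0.05 in the fit of 24 arrays. Dose and this ratio cannot be told apart at these doses.

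The spread within dose groups was what set the 9 genes apart from most probe sets. The SD within groups over 23 arrays was 1.16 for Tac1, 1.11 for Adora2a, 0.98 for Penk and 0.94 for Drd2. It was 0.88 for Rgs9, 0.78 for Pdyn, 0.78 for Ppp1r1b, 0.66 for Pde10a and 0.49 for Bcl11b. The median over all 18625 probe sets was 0.18, and the 9 values, of the brightest probe sets, were each above those of 98.36% to 99.98% of them. The dimmer tested probe sets were above 93.76% (Bcl11b 1378520_at), 97.93% (Bcl11b 1391948_at) and 96.75% (Pde10a 1370669_a_at). Only 8 probe sets had an SD over 1, and Tac1 and Adora2a were 2 of these. A wide spread was not particular to the members: it was 2.43 for Ttr and 1.12 for Sostdc1 (choroid plexus) and 0.93 for Slc17a6 (thalamus). Differences between group means made up a median of 18.6% of the variance of the 9 genes and 27.4% of that of all probe sets. In bulk tissue, fewer cells of a type and less RNA per cell cannot be told apart.

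The same arrays were high or low for most of the genes. The mean of the 9 genes on each array, each centred on its mean over 23 arrays, is called the member index. It was highest in vehicle replicate 4 (1.34), 50 mg/kg replicate 1 (1.09) and 20 mg/kg replicate 4 (1.02), and all 9 genes were above their own mean on each of these. It was lowest in 500 mg/kg replicate 4 (-1.64), the array that stood apart. Of the other 23 arrays, the lowest were 50 mg/kg replicates 4, 2 and 3 (-1.10, -1.08 and -0.99) and 5 mg/kg replicate 2 (-1.03). All 9 genes were below their mean on each of these arrays. Over the 23 arrays the index had 2 wide gaps, of 0.50 and 0.70, with the next widest at 0.25. These gaps left a lowest run of 7 arrays (-1.10 to -0.67), a middle run of 8 (-0.17 to -0.03) and a highest run of 8 (0.67 to 1.34). The lowest run held arrays of 5, 20, 50 and 200 mg/kg, and the highest run held arrays of all 6 groups.

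**Figure D3:**
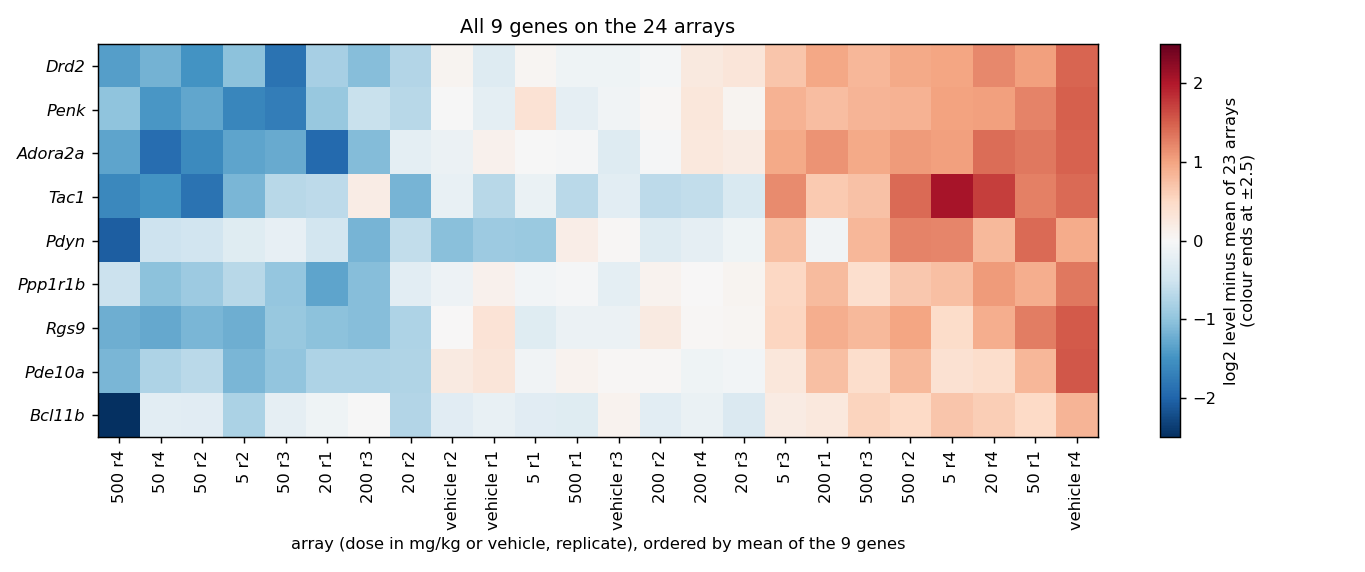
Log2 level of the 9 genes (rows) on 24 arrays (columns, ordered by the mean of the 9 genes), minus the mean of 23 arrays; red is higher, blue lower, and colours end at ±2.5. Rows change colour together from left to right; Bcl11b on 500 mg/kg replicate 4, at the far left, is beyond the end of the scale.

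After the group means were removed, the 36 pairs of the 9 genes had a median Pearson r of 0.848 over 23 arrays, with all 36 between 0.721 and 0.981; over all 24 arrays the median was 0.86 and the lowest 0.515. Spearman's rho had a median of 0.776. The largest adjusted p of the 36 pairs was 0.00098 for r and 0.00927 for rho (permutation within groups, 100000 resamples, two-sided). Without the 2 arrays farthest from the median of the first gene of a pair, the median r was 0.804. The pairs share their arrays, so they are not independent of each other. The genes were chosen with earlier results of these data known, so these p-values are not independent evidence of covariation.

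With group means kept, the median r of the pairs was 0.837 over the 23 arrays. On the same scale it was 0.151 within the lowest 7 arrays, -0.084 within the middle 8 and 0.612 within the highest 8. The runs were cut, after the index was seen, on the mean of the same 9 genes, and such a cut by itself lowers the r within a run. These values therefore do not show how far the covariation lies between or within the runs. With group means removed again, within the arrays of 5, 20 and 50 mg/kg (n = 12) the median r was 0.911. It was 0.852 within those of vehicle, 200 and 500 mg/kg (n = 11), and all 36 pairs were above 0 in both sets. The Gapdh ratio itself had an r of 0.446 and a rho of 0.316 with the index after group means were removed.

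Within the indirect pathway, Drd2, Penk and Adora2a had r of 0.934 to 0.970. Tac1 and Pdyn of the direct pathway had an r of 0.839, and the 6 pairs across the pathways ran from 0.806 to 0.864. Ppp1r1b, Rgs9 and Pde10a followed the indirect pathway genes closely, with Ppp1r1b and Adora2a the closest pair at 0.981. Bcl11b was nearest to Tac1 (0.937) and furthest from Ppp1r1b (0.721). Over all 24 arrays Bcl11b was nearest to Pdyn (0.831), with Tac1 at 0.702 and Ppp1r1b still furthest at 0.515. The mean of the 3 indirect pathway genes and that of the 2 direct pathway genes had an r of 0.881 and a rho of 0.778. Differences between these coefficients were not tested.

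**Figure D4:**
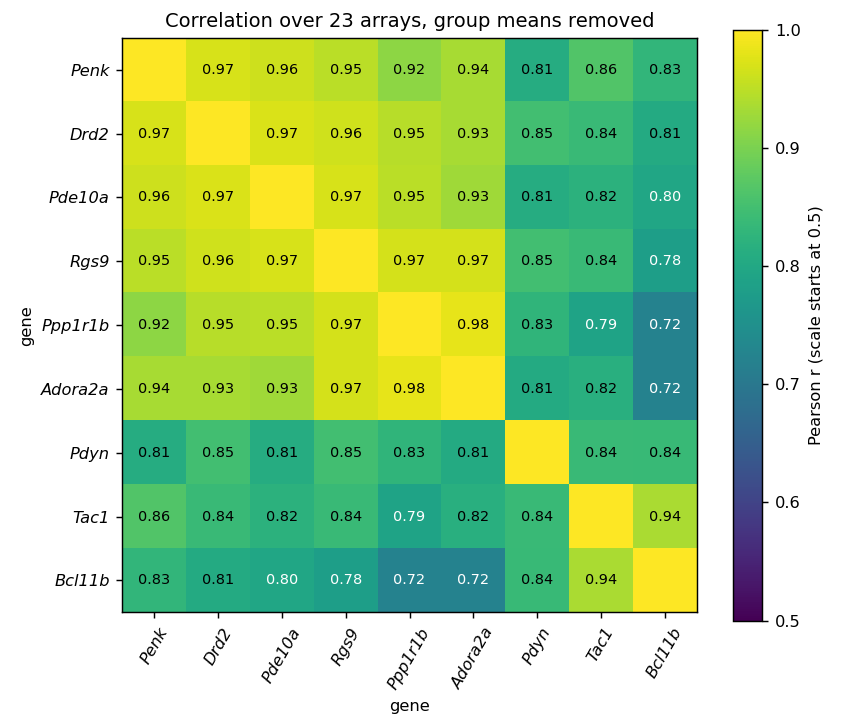
Pearson r of each pair of the 9 genes over 23 arrays after group means were removed (colour scale from 0.5 to 1). Penk, Drd2, Pde10a, Rgs9, Ppp1r1b and Adora2a form the brightest block, and Pdyn, Tac1 and Bcl11b have lower values with it.

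Genes also differed in how far they moved. Per unit of the mean of the other 8, Adora2a changed by 1.33, Tac1 by 1.29, Penk by 1.17 and Drd2 by 1.13 log2 units, and Bcl11b by 0.48. Background and the pseudocount compress dim probe sets, so these slopes do not rank the genes' RNA. Pdyn, singled out after its values were seen, was 0.53 below the mean of the other members in vehicle (SD 0.51, n = 4) and 0.65 above it at 50 mg/kg (SD 0.21, n = 4), each gene centred on its own mean. That difference was not tested.

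Other genes known from striatal neurons varied with the 9. A list of 32 held 24 measured genes, whose r with the member index had a median of 0.823, against -0.021 for all 10196 genes that are not members. Of the 50 genes with an r over 0.8 (0.49% of all), 13 were in that list, which is 26.0% of the 50 and 54.2% of the 24. The list was written with earlier results of these data known, so this overlap is a description and not independent support. Of the 24, 0 passed the adjusted limma test at any dose, and 1 had an unadjusted limma p under 0.05, the opioid receptor Oprk1 at 5 mg/kg (0.0156), where 5.52% of all probe sets passed the adjusted and 18.9% the unadjusted threshold. The adjusted shares at the other doses, in rising order, were 8.48%, 0.864%, 0% and 0.00537%, and the unadjusted ones 21.8%, 12.9%, 5.3% and 6.9%. The mean of the 24 genes had an r of 0.994 with the index over 23 arrays and of 0.978 over 24. With group means kept it was 0.775, 0.711 and 0.980 within the lowest, middle and highest runs.

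The dopamine receptor Drd1, which marks the direct pathway, had the highest r of any gene (0.989). Its SD within groups was 0.94, and it was 0.72 below vehicle at 50 mg/kg (adjusted limma p 0.75). Next were Pde1b, a calmodulin-dependent phosphodiesterase (0.984), the retinoic acid receptor Rarb (0.964), the adenylyl cyclase Adcy5 (0.949) and the G protein subunit Gng7 (0.947). These last 2 genes belong to the cAMP pathway of dopamine receptors, as does Gnal (0.886), the G protein alpha subunit of striatal neurons. Dach1 (0.938), Syndig1l (0.937), Zswim6 (0.934), Tyw5 (0.934) and the exchange factor Rasgrp2 (0.927) came next. The 20 highest also held the ion channel Asic4 (0.917), the taurine transporter Slc6a6 (0.909), Phactr1 (0.902), Ccnyl1 (0.890), Tomm70 (0.886), Tbc1d16 (0.886), Tmem158 (0.884), Klhl13 (0.874) and Arhgap18 (0.872). Of these 20, 8 were in the list of other striatal genes. With 500 mg/kg replicate 4 included, r was 0.559 for Tbc1d16, 0.722 for Dach1 and 0.778 for Phactr1, and between 0.858 and 0.988 for the other 17.

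The phosphatase Ptpn5 (STEP), another striatal gene, had an r of 0.860. Of the list, Oprk1, Wfs1, Foxp1 and Arpp19 had the smallest unadjusted p in limma's F test, between 0.1 and 0.326. Wfs1 was the single list member with a negative r over 23 arrays (-0.353, and 0.135 over 24). Over 24 arrays Ebf1 was at -0.211 (0.572 over 23) and Cnr1 at -0.101 (0.282 over 23). Tac3 was at 0.215 over 23 arrays and at 0.513 over 24. At the other end of all genes were the potassium channel Kcnc4 (-0.911), the endocytic protein Amph (-0.889), Nceh1 (-0.889), Kiaa1671 (-0.882), Atp6v1c1 (-0.849), the phosphatase Dusp1 (-0.845), Nell2 (-0.838) and Coro1a (-0.829). Over all 24 arrays Kcnc4 was at -0.863, but the other 7 were nearer to 0. Their r was then -0.506 for Nceh1, -0.496 for Amph, -0.337 for Dusp1, -0.319 for Nell2, -0.266 for Atp6v1c1, -0.208 for Coro1a and -0.078 for Kiaa1671.

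Lists of markers of other cells had index correlations nearer to 0 than the other striatal list, although some of their genes had a high r. The mean of 14 cortical and hippocampal excitatory genes had an r of -0.669 and a rho of -0.547 with the member index over 23 arrays, and an r of 0.135 over 24. Its median gene had an r of -0.317, while its brightest genes, Camk2a and Mef2c, were at -0.002 and -0.078 (0.476 and 0.450 over 24 arrays). Rasgrf2 (-0.822), Neurod6 (-0.737) and Slc17a7 (-0.608), chosen after their values were seen, were the lowest of that list, and over 24 arrays they were at 0.006, -0.433 and 0.003. The mean of 9 interneuron genes had an r of 0.508 (0.657 over 24), with Gad1, an enzyme of GABA synthesis, at 0.634 and Cck at -0.131 (0.436 over 24). Also singled out by their values were Slc32a1, the vesicular GABA transporter, at 0.828 (0.615 over 24), Gad2 at 0.754, Npy at 0.730 and Vip at -0.658 (0.224 over 24). GABA is the transmitter of the projection neurons too, so Gad1, Gad2 and Slc32a1 do not tell them from interneurons. For 5 septal, pallidal and hypothalamic genes it was 0.299 (0.509 over 24), with Cartpt at 0.697 and Lhx2 at -0.564 (0.329 over 24). For 8 microglial genes it was 0.405 (0.574 over 24) and for 9 astrocyte genes 0.266 (0.310 over 24), with C1qa at 0.465, Csf1r at 0.513, S100b at 0.452 (0.187 over 24) and Gja1 at 0.371 (0.561 over 24). Without the 2 arrays farthest from the median index, r was 0.062 for the microglial, 0.185 for the astrocyte and 0.197 for the septal list. It was then 0.453 for the interneuron list and -0.559 for the cortical and hippocampal list. Arrays of bulk tissue do not show which cells the RNA of a listed gene came from. Which cells the r of Cartpt, or of any other gene named here, reflects was not tested.

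The remaining lists had index correlations between -0.272 and 0.276 over 23 arrays. These were the cerebellar (-0.272, with Itpr1 at 0.667 and Calb1 at 0.102), thalamic (-0.134, with Prkcd at -0.080 and Calb2 at 0.087) and endothelial and blood genes (-0.038, with Hbb at -0.144 and Slco1a4 at 0.326). Of the 9 cerebellar genes, 5 had an r above 0. Neurod1 (-0.752, and -0.708 over 24 arrays) and Cbln1 (-0.583, and -0.658 over 24), chosen after their values were seen, were the lowest of that list. Choroid plexus genes were at -0.021 (Ttr -0.025, Aqp1 -0.083) and midbrain dopaminergic genes at 0.031 (Nr4a2 -0.056, Aldh1a1 -0.406). Myelin genes were at 0.153 (Mbp 0.359, Mobp 0.426) and forebrain cholinergic genes at 0.276 (Zic4 0.291, Zic1 0.143). With 500 mg/kg replicate 4 included, r was -0.519 for the cerebellar, -0.241 for the thalamic, -0.207 for the choroid plexus and -0.171 for the midbrain list. It was 0.047 for the endothelial and blood list, 0.123 for myelin and -0.241 for the cholinergic list. Of the genes named for these lists, Itpr1 was at 0.069, Calb1 at -0.391, Calb2 at -0.250, Zic4 at -0.142 and Zic1 at -0.332 over 24 arrays. Which cells the r of these genes reflects was not tested either. The part of these cell types in the spread of the 9 genes was not tested.

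**Figure D5:**
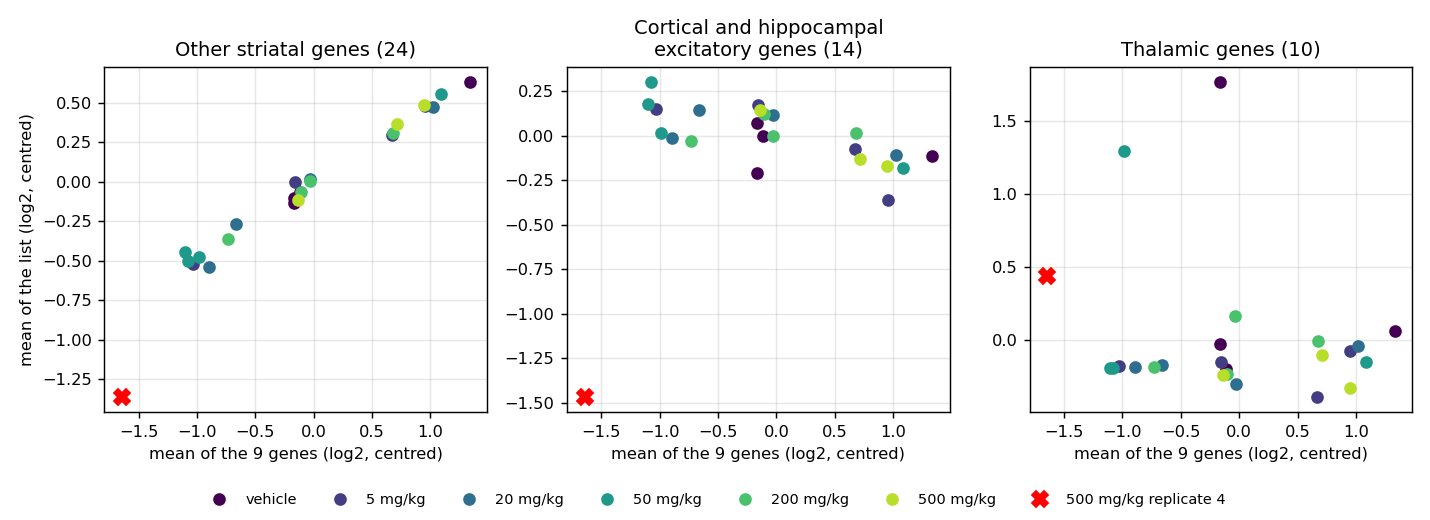
Mean level of 3 marker lists (y axes, log2, centred) against the mean of the 9 genes on the same array (x axes); each point is 1 array, coloured by dose, and the red cross is 500 mg/kg replicate 4. The other striatal genes rise with the 9 genes, the cortical and hippocampal genes fall slightly except on the crossed array, and the thalamic genes are high on few arrays without relation to the x axis.

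On 500 mg/kg replicate 4, Bcl11b was at 4.87, against 9.66 ± 0.48 (SD, n = 3) on the other arrays of its group, and its other 2 tested probe sets were also the lowest of all 24 arrays there. The log2 difference from its companions on that array was -2.80 for Pdyn, -2.11 for Tac1, -1.98 for Adora2a, -1.93 for Drd2, -1.77 for Rgs9, -1.59 for Pde10a, -1.501 for Penk and -0.89 for Ppp1r1b. Ppp1r1b was lower on 6 of the other 23 arrays, and Bcl11b, Pdyn and Pde10a on none. The cortical and hippocampal list was also low on it (-1.47, against -0.36 or more elsewhere). With this array the difference of Bcl11b at 500 mg/kg was -1.06 ± 0.69 (SE), and without it 0.14 ± 0.32 (SE, adjusted limma p 0.98).

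Several probe sets stand for 5 of the genes. Those of Bcl11b (1384944_at, 1391948_at and 1378520_at) had r of 0.909 to 0.962 with each other over 23 arrays, those of Rgs9 0.861, those of Pde10a 0.849 and those of Adora2a 0.805. Both Pdyn probe sets had an r of 0.570. The dimmer probe sets of Adora2a (1368301_at), Pdyn (1369882_at) and Rgs9 (1382090_at) were below the filter on low intensity and were not tested. Their mean levels were 5.01, 5.73 and 5.58.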

How the data were processed

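The authors deposited 1 value table of intensities for 24 Affymetrix arrays, made with GCOS per the submitters' processing notes; no source at hand gives its scaling or version. Medians of the arrays differed by up to 0.73 log2 units, so intensities were quantile normalized. Log2(intensity + 16) was tested with limma 3.58.1 (R 4.3.3) over 18625 of 31099 probe sets, without 57 control probe sets and the dimmest 40%. The fit had 6 group means with a trended prior, and p-values were adjusted by Benjamini-Hochberg. Samples were grouped by the dose in the labels, which name 1 animal per array; the number of arrays limits the precision. Alternatives to the normalization, filter, pseudocount, variance model, samples and covariates are given in the closing section.

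Genes were named from the platform annotation, and a gene is represented by its brightest probe set. Of the probe sets, 20832 had 1 symbol, 436 several and 9831 none. Correlations used deviations from group means over 23 arrays, except within the 3 runs of arrays, where group means were kept. 500 mg/kg replicate 4 was left out of them, and tests across samples permuted arrays within groups. Named genes were all members, the 20 highest and 8 lowest correlations with the member index, further striatal genes, the 4 smallest F test p of the other striatal genes, and the 2 brightest genes of each other list. The members and lists were chosen with earlier results of these data known.

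The Gapdh ratio was first computed from normalized values and then replaced by the log2 ratio of deposited intensities after the first fit had been seen; both are given in the closing section. The fit was tested on simulated data with known changes.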

Additional observations from a re-analysis of the deposited data

Results flagged for a closer look

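In 10 of 60 groups of 4 arrays checked (9 genes and their mean in 6 dose groups), 1 array lay far from the other 3 by Dixon's test; chance flags about 1 group in 20, and the 9 genes are not independent. In vehicle, replicate 4 was at 10.88 for Penk, with the others at 9.14 to 9.37, and at 1.34 for the member index, with the others at -0.17 to -0.11. In the 50 mg/kg group, replicate 1 was apart for 6 genes. It was at 10.62 for Penk (others 7.64 to 8.07), 9.60 for Pdyn (7.66 to 7.97), 10.17 for Ppp1r1b (8.22 to 8.34) and 9.43 for Rgs9 (6.86 to 7.19). For Pde10a it was at 10.29 (others 8.47 to 8.78) and for Bcl11b at 9.89 (9.13 to 9.17). Its member index was 1.09, against -1.10 to -0.99. At 500 mg/kg, replicate 4 was at 4.87 for Bcl11b, with the others at 9.11 to 9.95.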

How the results depend on the processing

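Counts of member probe sets past the test did not move: 0 passed in all 37 alternatives at each dose and in all 36 for the F test and the slope, with a smallest adjusted limma p of 0.0825 (50 mg/kg). In the main fit 5.52%, 8.48%, 0.864%, 0% and 0.00537% of all probe sets passed at the rising doses, 5.93% in the F test and 0% for the slope. With the Gapdh ratio in the fit, 0% passed at 5, 20 and 50 mg/kg. A count of 0 is near these shares, so it says little about the members. The number of member probe sets tested was 12, except 15 without the filter, 11 with the 60% filter and 9 with 1 probe set per gene. The choices tried were median centring, the values as deposited, filters of 0 and 60%, pseudocounts of 1 and 64, no intensity trend, array weights, 2 groups alone, 1 probe set per gene, the Gapdh ratio as a term and leaving out each array. No paired analysis was possible because the replicate numbers were given in accession order and pair no animals. With 4 arrays a group, the 95% interval of a member's difference reached up to 1.59 log2 units to either side.

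Directions were not stable. The median difference of the 9 genes at 5 mg/kg changed sign in 6 of 36 alternatives (array weights was added to these after the data were seen), at 20 mg/kg in 4, at 50 mg/kg in 1, at 200 mg/kg in 5 and at 500 mg/kg in 4, with 0.23 under array weights. Leaving out 1 array gave medians from -0.40 to 0.31 at 5 mg/kg, -0.81 to -0.019 at 20 mg/kg, -1.41 to -0.59 at 50 mg/kg, -0.56 to 0.15 at 200 mg/kg and -0.48 to 0.22 at 500 mg/kg. Adjusting for the Gapdh ratio of deposited values, the 20 mg/kg median was 0.56, and with the ratio of normalized values the medians at 5 and 20 mg/kg were 0.86 and 0.55. Adjusting for the ratio of deposited values but without 500 mg/kg replicate 4, medians at 5, 20 and 50 mg/kg were 1.96, 1.70 and 0.59. The median r of pairs was 0.82 to 0.91 without 1 array and 0.776 as rho, but 0.151, -0.084 and 0.612 within the lowest, middle and highest runs of arrays, with group means kept (0.837 over 23 arrays on that scale). The yardsticks for a shift, 0.91 for medians (SD of the index within groups) and 0.093 for r (jackknife SE), were set after the data were seen, as were the runs, both further Gapdh fits and the split by Gapdh ratio. The cause of these shifts was not tested.

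Of 45 differences of single genes, 44 changed sign under some alternative (147 of 1665 values), and none passed the threshold. With the values as deposited, the turned differences at 5 mg/kg were Drd2 0.063, Penk 0.11, Adora2a 0.024, Ppp1r1b 0.12 and Bcl11b 0.082. At 20 mg/kg they were Drd2 0.077, Penk 0.022, Tac1 0.16, Ppp1r1b 0.078 and Bcl11b 0.18. Adjusting for the Gapdh ratio of deposited values, the turned differences at 5 mg/kg were Drd2 0.87, Penk 0.89, Adora2a 1.21, Ppp1r1b 1.23, Rgs9 0.62 and Pde10a 0.095. At 20 mg/kg they were Drd2 0.69, Penk 0.62, Adora2a 0.93, Tac1 0.17, Ppp1r1b 1.02 and Rgs9 0.56. At 50 mg/kg it was Ppp1r1b 0.29. At 200 mg/kg they were Drd2 0.10, Penk 0.21, Adora2a 0.27, Ppp1r1b 0.18 and Rgs9 0.022. At 500 mg/kg they were Adora2a 0.047 and Ppp1r1b 0.022. With the ratio taken from normalized values, the definition fitted first, the turned differences at 5 mg/kg were Drd2 0.86, Penk 0.92, Adora2a 1.29, Ppp1r1b 1.20, Rgs9 0.66 and Pde10a 0.18. At 20 mg/kg they were Drd2 0.64, Penk 0.61, Adora2a 0.95, Tac1 0.38, Ppp1r1b 0.93, Rgs9 0.55 and Pde10a 0.002. At 50 mg/kg it was Ppp1r1b 0.27. At 200 mg/kg they were Drd2 0.086, Penk 0.21, Adora2a 0.28, Tac1 0.024, Ppp1r1b 0.15 and Rgs9 0.018. Adjusting for the ratio of deposited values but without 500 mg/kg replicate 4, the turned differences at 5 mg/kg were Drd2 2.15, Penk 1.96, Adora2a 2.62, Ppp1r1b 2.05, Rgs9 1.88, Pde10a 1.15 and Bcl11b 0.40. At 20 mg/kg they were Drd2 1.998, Penk 1.70, Adora2a 2.35, Tac1 1.43, Ppp1r1b 1.85, Rgs9 1.84, Pde10a 1.02 and Bcl11b 0.30. At 50 mg/kg they were Drd2 0.59, Penk 0.51, Adora2a 0.96, Tac1 0.46, Ppp1r1b 0.92, Rgs9 0.92, Pde10a 0.47 and Bcl11b 0.24. At 200 mg/kg they were Drd2 0.56, Penk 0.60, Adora2a 0.78, Tac1 0.40, Pdyn 0.34, Ppp1r1b 0.48, Rgs9 0.47, Pde10a 0.099 and Bcl11b 0.041. At 500 mg/kg they were Drd2 0.80, Penk 0.69, Adora2a 1.01, Tac1 0.78, Ppp1r1b 0.59, Rgs9 0.68, Pde10a 0.33 and Bcl11b 0.27. With array weights, the turned difference at 50 mg/kg was Pdyn -0.063. At 500 mg/kg they were Drd2 0.29, Penk 0.23, Adora2a 0.40, Tac1 0.48, Ppp1r1b 0.086, Rgs9 0.15 and Bcl11b 0.051.

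Leaving out 1 array at a time gave ranges that held both signs: at 5 mg/kg Drd2 -0.37 to 0.31, Penk -0.42 to 0.46, Adora2a -0.40 to 0.38, Tac1 -0.11 to 0.95, Ppp1r1b -0.35 to 0.21 and Bcl11b -0.41 to 0.083. Ranges at 20 mg/kg were Drd2 -0.69 to 0.10, Adora2a -0.93 to 0.18, Tac1 -0.81 to 0.26, Pdyn -0.15 to 0.55 and Ppp1r1b -0.77 to 0.028. Ranges at 50 mg/kg were Pdyn -0.15 to 0.70 and Bcl11b -0.38 to 0.054. Ranges at 200 mg/kg were Drd2 -0.56 to 0.15, Penk -0.37 to 0.24, Adora2a -0.56 to 0.19, Tac1 -0.43 to 0.27, Pdyn -0.47 to 0.19, Ppp1r1b -0.59 to 0.042 and Bcl11b -0.29 to 0.081. Ranges at 500 mg/kg were Drd2 -0.48 to 0.29, Penk -0.41 to 0.24, Adora2a -0.41 to 0.39, Tac1 -0.59 to 0.42, Pdyn -0.10 to 0.99, Ppp1r1b -0.32 to 0.21, Rgs9 -0.61 to 0.12 and Bcl11b -1.56 to 0.14.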
